A study of Rattus norvegicus with 11 samples.

Results

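The 11 RNA-seq libraries of this study were divided by the replicate number in their titles, Rep 1 or Rep 2 on one side and Rep 3 or Rep 4 on the other, and every gene was compared across that split with the group as a covariate. All 11 of 11 libraries entered, 5 in Rep 1-2 and 6 in Rep 3-4. They came from primary hippocampal neurons of CD (Sprague Dawley) IGS rats at day 7 in vitro, a culture of young postmitotic neurons. The neurons expressed, besides their own H1 genes, an exogenous copy of the wild-type form of the linker histone H1.4 (4 libraries, WT H1.4), a copy with a frameshifted C-terminal tail (4 libraries, H1.4 CFT) or GFP as the control (3 libraries, numbered 2 to 4). Libraries are called WT 1 to 4, CFT 1 to 4 and GFP 2 to 4. The submitters call them biological replicates and name no batch, litter, day or sex, and the sources used here do not say how the constructs were delivered or how many animals a culture held. The split was chosen because libraries with these numbers resembled each other over all genes, so the differences across it are described here without a test. H1f4, the rat gene for H1.4, had between 0 and 8 counts in each library, which is too few to check the labels.

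Linker histones bind the nucleosome at the DNA entry and exit points and favour folded chromatin, and their C-terminal tail carries most of the contacts with linker DNA. A primary hippocampal culture holds excitatory neurons, inhibitory neurons and some glia in proportions set by the animals and by the dissection. Its transcriptome also follows oxygen, nutrients and the clock of the dish, which work through pathways such as the hypoxia-inducible factors, the sterol-regulated enzymes and the integrated stress response.

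Within a group, libraries on the same side of the split were close to each other and libraries on opposite sides were not. The ratio of observed variance to counting variance was 1.81 to 2.34 in the 5 same-side pairs of libraries and 4.00 to 10.1 in the 10 pairs across it, with the widest gaps in H1.4 CFT (8.81 to 10.1). Once each group's mean was removed, the first principal component held 41.3% of the variance, with all 5 Rep 1-2 libraries on one side and all 6 Rep 3-4 libraries on the other. Between groups, deviations from the group mean correlated at 0.0959 to 0.374 for libraries with the same number and at 0.130 to 0.375 for libraries with a different number on the same side. Pairs on opposite sides gave -0.385 to -0.0940. Below the level of the split the numbers carried little. The difference between WT 1 and WT 2 correlated with that between CFT 1 and CFT 2 at 0.0115 over 12663 genes, and the other such differences gave -0.0844 to 0.00987. These values chose the split and are given as its description, over genes that share libraries and depth.

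**Figure D1:**
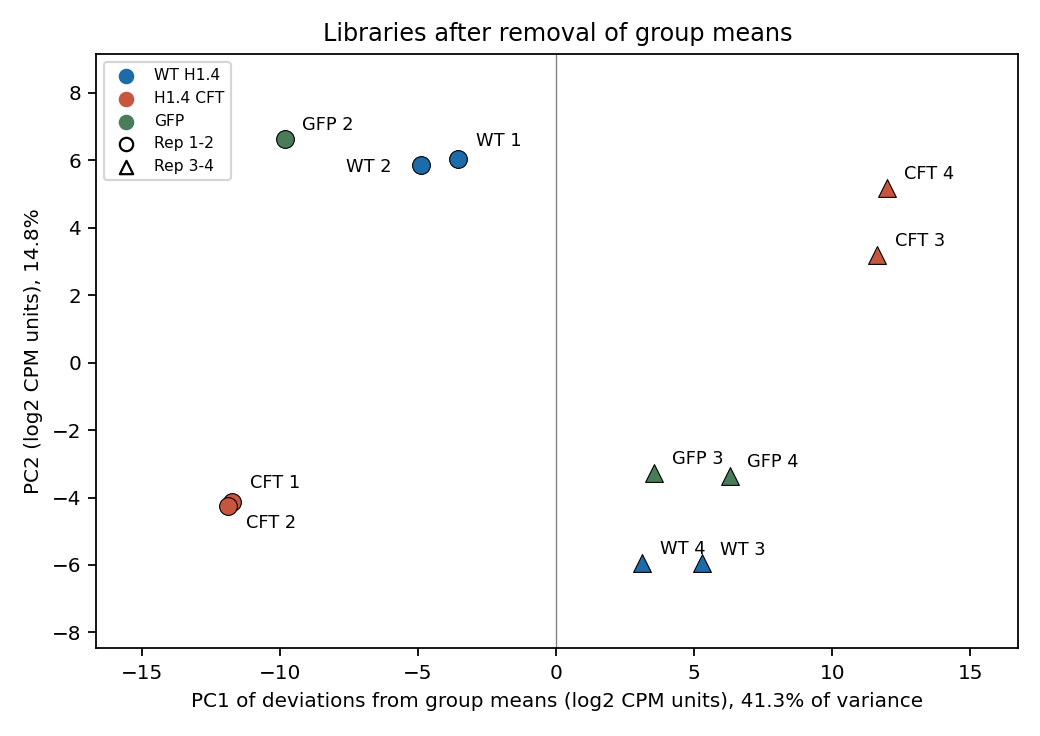
First and second principal components (log2 CPM units) of the 11 libraries after removal of each group's mean. Colour gives the group and shape the side of the split; all 5 Rep 1-2 libraries have a negative and all 6 Rep 3-4 libraries a positive PC1, which held 41.3% of the variance, against 14.8% for PC2.

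Levels below are CPM, counts scaled to library size with the TMM method, and a log2 difference is Rep 1-2 minus Rep 3-4 from one fit with the group as a covariate. A gene is called separated where, in each of the 3 groups, every Rep 1-2 library lay on the same side of every Rep 3-4 library. Of 17294 genes with enough counts, 1669 (9.65%) were separated, 898 (5.19%) higher and 771 (4.46%) lower in Rep 1-2. Most of these differences were small, with a median fold of 1.18 among separated genes and 1.06 among all genes tested. At least 1.5-fold, 297 genes (1.72%) were separated, 174 (1.01%) higher and 123 (0.711%) lower, at least 2-fold 58 and 52, and at least 4-fold 12 and 13. Without GFP 2, the one GFP library of Rep 1-2, the call rested on WT H1.4 and H1.4 CFT only, and 234 genes were at least 1.5-fold higher and 205 lower. Just inside the 1.5-fold limit lay Nfe2l3 (1.503-fold) and Eif2s3y (1.505-fold), and just outside it Casp4 (1.491-fold) and Agbl1 (1.494-fold). Within single groups, 43.2% of genes did not overlap between the sides in WT H1.4 and 57.3% in H1.4 CFT, with 2 libraries a side. Any division of a group 2 against 2 leaves many genes without overlap, so these shares do not measure the split alone. The 74.9% in GFP cannot be set beside them, because there 1 library on a side leaves less room for overlap. WT H1.4 and H1.4 CFT, which share no library, each had sides that did not overlap in the same direction for 2588 genes (15.0%) and in opposite directions for 1886 (10.9%). Some genes of both kinds would arise in any such division. Across 12663 genes with a mean of at least 5 CPM, the differences in WT H1.4 and H1.4 CFT correlated at 0.277, those in WT H1.4 and GFP at 0.362 and those in H1.4 CFT and GFP at 0.438. These are descriptions across genes, which are not independent.

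Depth and mapping did not follow the split in all groups. Gene counts per library were 13998280 to 18846492 in Rep 1-2 and 12070941 to 18588139 in Rep 3-4 and overlapped in every group. The share of counts from mitochondrial genes was 2.75% to 3.11% and 2.57% to 3.31%, higher in Rep 1-2 within WT H1.4 and lower within H1.4 CFT and GFP. Among the general library measures, which were depth, shares of reads by mapping class, detected genes, the mitochondrial share and the share of the 10 most abundant genes, none lay on the same side in all 3 groups. Of 3 genes tested from the list on RNA and library quality, 1 was separated, against 9.65% of all genes. It was the nuclear noncoding gene Snhg11 (0.20, SE 0.09), which overlaps small nucleolar RNA genes.

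Genes of the sex chromosomes separated the sides in every group, the Y-linked genes higher and their X-linked partners lower in Rep 1-2. Y-linked genes are read only in male cells, and in rodents the X-linked partners are known to escape X inactivation in female cells to a varying degree. Kdm5d, the Y-linked histone H3 lysine 4 demethylase, stood at 31.1, 29.99, 17.4 and 18.9 CPM in WT 1 to 4, 38.1, 30.1, 20.8 and 21.9 in CFT 1 to 4, and 34.9, 19.04 and 21.3 in GFP 2 to 4. All 5 Rep 1-2 libraries lay above all 6 Rep 3-4 libraries, with a log2 difference of 0.73 (SE 0.06). Eif2s3y, a Y-linked subunit of translation initiation factor 2, stood at 55.1, 55.9, 32.99 and 34.4 CPM in WT 1 to 4, 52.7, 51.2, 34.2 and 37.4 in CFT 1 to 4, and 56.5, 40.3 and 40.8 in GFP 2 to 4, again with no overlap (log2 difference 0.59, SE 0.05). Uty, the Y-linked relative of the H3 lysine 27 demethylase UTX, stood at 13.5, 10.7, 7.82 and 8.18 CPM in WT 1 to 4, 15.5, 11.7, 8.395 and 9.48 in CFT 1 to 4, and 15.6, 8.55 and 10.7 in GFP 2 to 4 (log2 difference 0.62, SE 0.10), with the sides apart within each group and WT 2 and GFP 4 at about the same level.

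The X-linked partners differed by less and in the opposite direction. Kdm6a, which encodes UTX, stood at 32.4, 30.8, 35.6 and 36.1 CPM in WT 1 to 4, 27.3, 26.7, 33.2 and 33.5 in CFT 1 to 4, and 31.8, 33.8 and 35.3 in GFP 2 to 4, with a log2 difference of -0.21 (SE 0.05). Its levels were lower in Rep 1-2 within each group, although WT 1 lay close to CFT 3. The log2 differences were -0.21 (SE 0.04) for the translation factor subunit gene Eif2s3, -0.17 (SE 0.03) for the RNA helicase gene Ddx3x and -0.11 (SE 0.03) for the demethylase gene Kdm5c. Summed over the 3 Y-linked genes tested, the level was 93.1 to 107 CPM in Rep 1-2 and 58.2 to 72.8 CPM in Rep 3-4. Kdm5c, Kdm6a and Eif2s3 summed to 343 to 369 CPM in Rep 1-2 and 384 to 407 CPM in Rep 3-4, without Ddx3x. Per 100 CPM of these 3 X-linked genes there were 25.2 to 30.7 CPM of the Y-linked genes in Rep 1-2 and 15.2 to 18.4 CPM in Rep 3-4. All 7 of 7 sex chromosome genes tested were separated, against 9.65% of all genes. Kdm5d, Uty, Eif2s3y and Kdm6a overlap other gene models in the RefSeq annotation of GRCr8. Reads of overlapping genes may not be told apart. The Y-linked genes Ddx3y and Usp9y lay below the count filter, with 8 counts over Rep 1-2 and 26 over Rep 3-4 for Ddx3y and 14 and 14 for Usp9y. In such bulk libraries fewer cells of a kind and less RNA per cell cannot be told apart, and the part of the cells' sex in the other differences was not tested.

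**Figure D2:**
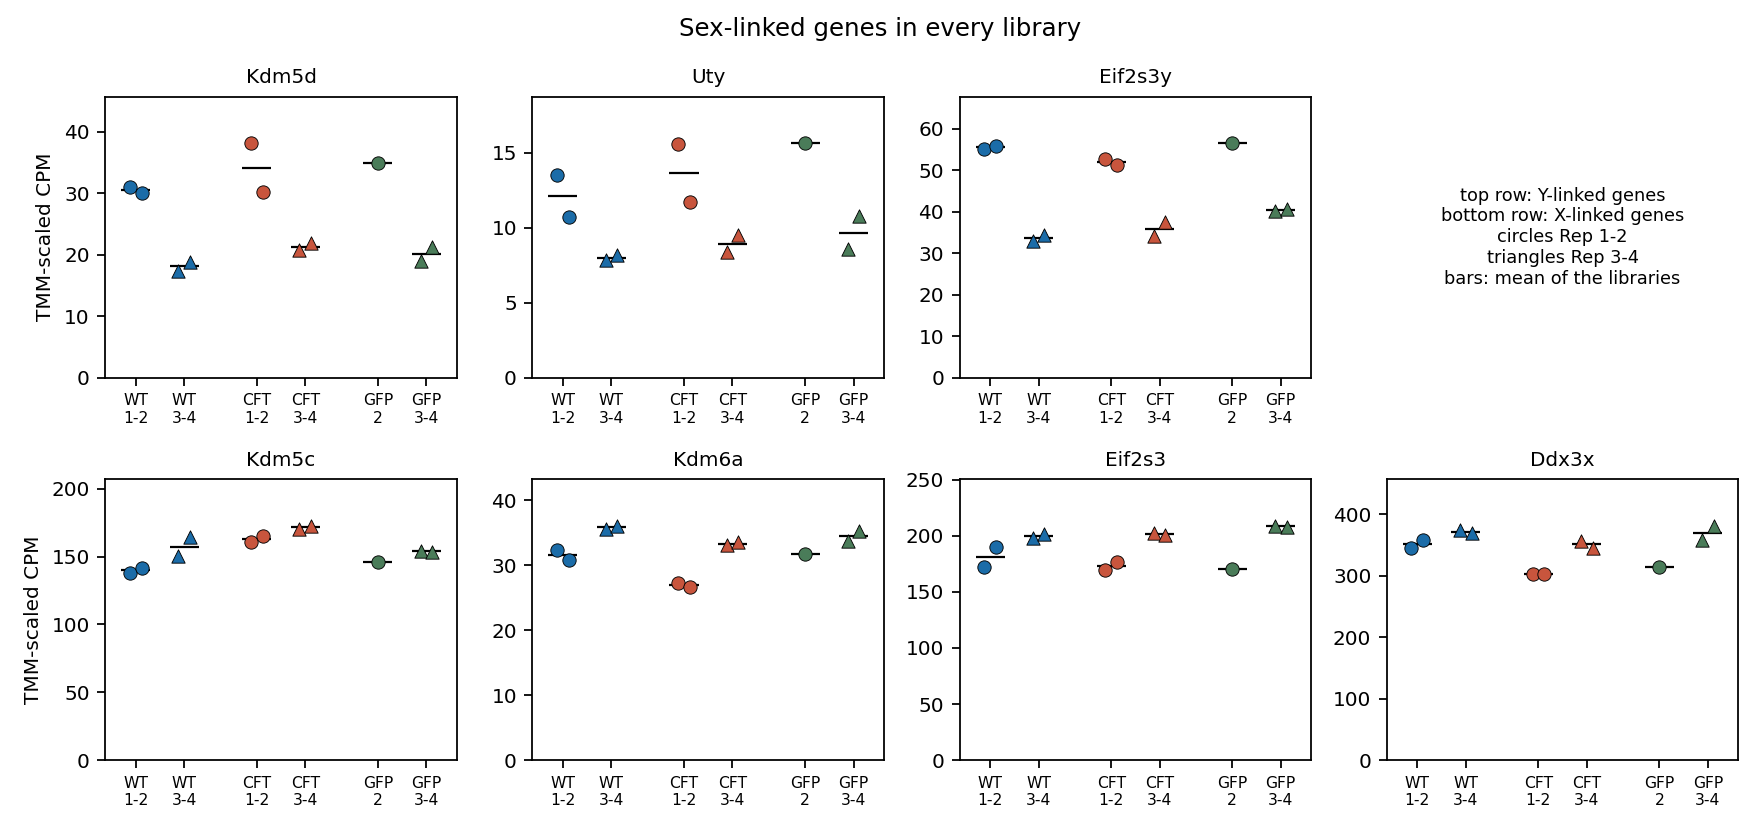
TMM-scaled CPM (vertical axes, from 0) of 3 Y-linked genes (top) and 4 X-linked partners (bottom) in every library; circles are Rep 1-2, triangles Rep 3-4 and bars their mean. Kdm5d, Uty and Eif2s3y are higher and Kdm5c, Kdm6a, Eif2s3 and Ddx3x lower in Rep 1-2 within each of the 3 groups.

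A small set of genes was read on one side of the split and almost absent on the other. Gbp6, an interferon-inducible guanylate-binding protein, had 0 counts in all 5 Rep 1-2 libraries and 440 counts in Rep 3-4. Its levels in Rep 3-4 were 3.19 and 3.27 CPM in WT 3 and 4, 5.33 and 7.15 in CFT 3 and 4, and 3.10 and 3.54 in GFP 3 and 4. Gbp6 was thus at least 119-fold lower in Rep 1-2, computed on unscaled totals against a limit of 3 counts over the 5 libraries (0.0368 CPM), which covers counting error only. RT1-CE16, a class I gene of the rat major histocompatibility complex (RT1), went the other way, at 4.38, 7.15, 0.275 and 0.182 CPM in WT 1 to 4, 3.798, 3.49, 0.227 and 0 in CFT 1 to 4, and 5.08, 0.0839 and 0.0601 in GFP 2 to 4. It had 379 counts in Rep 1-2 and 14 in Rep 3-4 (log2 difference 5.01, SE 0.31). Dstnl1, a destrin-like gene, stood at 9.52, 10.1, 0.386 and 0.182 CPM in WT 1 to 4, 8.73, 7.37, 0.454 and 0.414 in CFT 1 to 4, and 10.02, 0.335 and 0.661 in GFP 2 to 4 (log2 difference 4.47, SE 0.19). None of these levels overlapped between the sides, and each gene was split in all 3 groups. Gbp6 and RT1-CE16 belong to multigene families with near-identical copies, between which the counting may have divided reads, so their levels as single genes are uncertain.

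Gsn was well expressed on both sides. It encodes gelsolin, which severs and caps actin filaments, and stood at 71.4, 69.1, 15.4 and 15.03 CPM in WT 1 to 4, 71.3, 77.9, 18.9 and 22.4 in CFT 1 to 4, and 77.01, 20.3 and 16.8 in GFP 2 to 4. No Rep 3-4 library reached the lowest Rep 1-2 library, and the log2 difference was 2.03 (SE 0.06). Prss12, which encodes the synaptic protease neurotrypsin, stood at 10.7, 11.3, 2.92 and 3.698 CPM in WT 1 to 4, 5.102, 4.67, 1.82 and 1.81 in CFT 1 to 4, and 11.3, 4.36 and 3.06 in GFP 2 to 4 (log2 difference 1.62, SE 0.13). The H1.4 CFT libraries had the lowest level on each side, and CFT 1 and 2 lay only just above GFP 3. Further genes higher in Rep 1-2 were Extl1, a glycosyltransferase of the exostosin family (1.10, SE 0.11), Ifi27, an interferon-inducible gene (1.08, SE 0.16), the axonemal dynein gene Dnah8 (1.08, SE 0.15), the neuropeptide Y receptor gene Npy2r (1.06, SE 0.26) and Niban3 (1.06, SE 0.21).

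The genes with the largest differences lower in Rep 1-2 were of low abundance, as were most of those with the largest differences higher. Cylc1, which encodes a cytoskeletal protein of sperm heads, stood at 1.03, 1.45, 4.68 and 5.03 CPM in WT 1 to 4, 0.8504, 1.18, 4.48 and 3.26 in CFT 1 to 4, and 0.871, 4.28 and 4.92 in GFP 2 to 4 (log2 difference -2.04, SE 0.18). Matn4, a matrilin of the extracellular matrix, stood at 0.703, 0.578, 3.58 and 2.42 CPM in WT 1 to 4, 1.08, 1.46, 5.84 and 4.299 in CFT 1 to 4, and 1.16, 2.68 and 4.38 in GFP 2 to 4 (log2 difference -1.98, SE 0.21). Mgp, the matrix Gla protein of cartilage and vessel walls, stood at 1.35, 1.16, 2.26 and 3.33 CPM in WT 1 to 4, 0.737, 1.69, 4.37 and 5.905 in CFT 1 to 4, and 0.871, 7.88 and 5.405 in GFP 2 to 4 (log2 difference -1.91, SE 0.25). Each of these was at or below 1.69 CPM in every Rep 1-2 library and at or above 2.26 CPM in every Rep 3-4 library. Also lower were Poteh (-1.59, SE 0.22), the smooth muscle actin gene Acta2 (-1.48, SE 0.20), the clustered protocadherin gene Pcdhb6 (-1.43, SE 0.19), Pmel, a structural protein of melanosomes (-1.16, SE 0.12), the G protein subunit gene Gnb3 (-1.01, SE 0.19), the parathyroid hormone receptor gene Pth1r (-1.01, SE 0.13) and the organic cation transporter gene Slc22a3 (-0.98, SE 0.18). Protocadherin and Poteh reads may be shared with near-identical relatives. Pmel overlaps Cdk2 and Dgka and Matn4 overlaps Rbpjl in the annotation, and as the strand setting of the counting is not given in the sources used here, reads of overlapping genes may not be told apart.

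**Figure D3:**
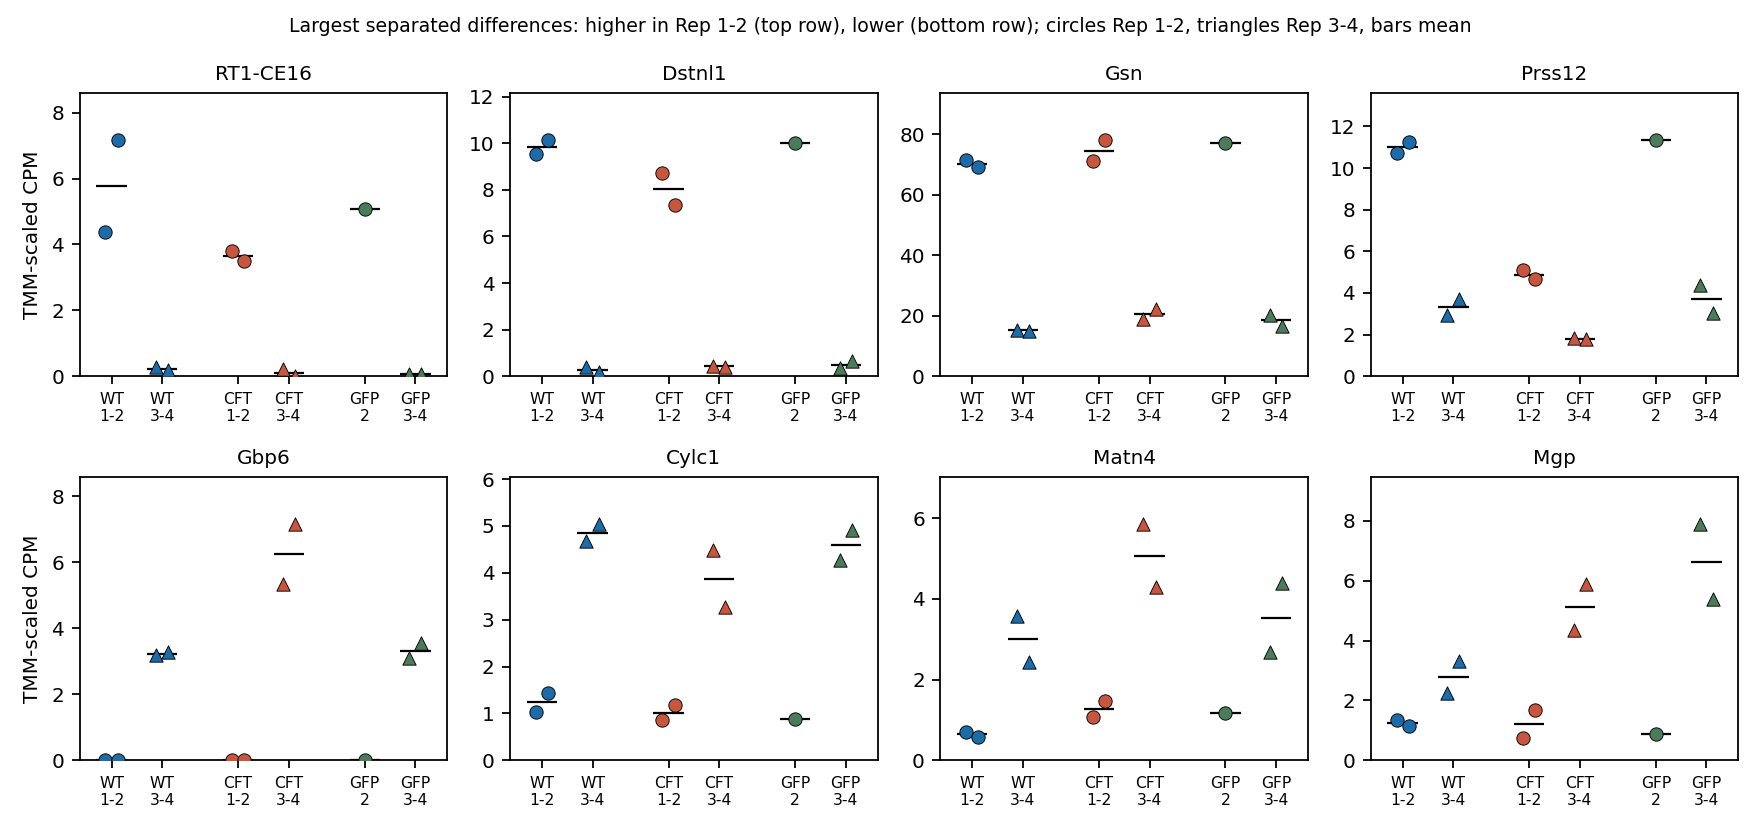
TMM-scaled CPM (vertical axes, from 0) of 4 genes higher (top) and 4 genes lower (bottom) in Rep 1-2 in every library; circles are Rep 1-2, triangles Rep 3-4 and bars their mean. Gbp6 had 0 counts in all 5 Rep 1-2 libraries, and Gsn lay at 69.1 to 77.9 CPM in Rep 1-2 against 15.0 to 22.4 CPM in Rep 3-4.

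The RT1 locus held separated genes in both directions. Of 8 genes tested from the RT1 list 1 was higher, 2 were lower and 5 were not separated. Of all genes, 9.65% were separated. RT1-A2, a class I gene, stood at 3.73, 5.78, 12.01 and 12.7 CPM in WT 1 to 4, 6.63, 4.39, 8.45 and 8.08 in CFT 1 to 4, and 4.43, 8.13 and 8.17 in GFP 2 to 4 (log2 difference -0.97, SE 0.14), and RT1-T24-1 differed by -0.84 (SE 0.18). RT1-N3 was higher (0.26, SE 0.08). RT1-CE16 was not on the list, and neither was RT1-M6-2, which was separated and lower (-1.63). Of 20 interferon response and antigen presentation genes tested, a list that does not hold Gbp6 or Ifi27, the peptide transporter gene Tap2 was separated (-0.32, SE 0.12) and 19 were not, and the median of the list was 0.09. Some separated genes lay next to each other in the genome. Gene order was taken from the RefSeq annotation of the GRCr8 build. Among 1523 separated genes placed there, 16.1% had a neighbour separated in the same direction. Of all 15716 genes placed, 10.03% were next to a gene higher and 8.76% next to a gene lower in Rep 1-2. Among those at least 1.5-fold different the share was 9.57% of 230, against 1.73% of all genes placed next to such a gene that was higher and 1.145% next to one that was lower. The longest run of separated neighbours held 4 genes and lay on the Y chromosome (LOC103694537, Kdm5d, Eif2s3y and Uty).

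Genes of glycolysis and the hypoxia response were higher in Rep 1-2. Hypoxia-inducible factors bind DNA at a short core, often ACGTG, and switch on glucose uptake, glycolysis, lactate export and vessel growth when oxygen is low. Of 30 genes tested, 11 were separated, all higher, against 9.65% of all genes, and 29 had a log2 difference above 0. The median of the list was 0.31, against 0.0055 over all genes. The list was known from earlier results to move between the libraries, and its genes share regulators and libraries. Its difference was not even over the groups, with medians of 0.02 in WT H1.4, 0.52 in H1.4 CFT and 0.27 in GFP.

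The signalling and transport genes of the list differed most. Adm, the vasodilator peptide adrenomedullin, stood at 7.47, 6.504, 3.14 and 3.03 CPM in WT 1 to 4, 5.27, 4.105, 1.47 and 1.04 in CFT 1 to 4, and 5.59, 2.600 and 1.74 in GFP 2 to 4 (log2 difference 1.46, SE 0.16). Slc16a3, the lactate exporter MCT4, stood at 9.85, 11.5, 5.23 and 6.73 CPM in WT 1 to 4, 9.297, 7.53, 3.86 and 2.07 in CFT 1 to 4, and 11.1, 3.94 and 3.24 in GFP 2 to 4 (log2 difference 1.26, SE 0.15). Slc16a3 overlaps Csnk1d in the annotation. Ddit4, an inhibitor of mTORC1 signalling, stood at 281, 276, 191 and 224 CPM in WT 1 to 4, 215, 219, 118 and 115 in CFT 1 to 4, and 269, 142 and 118 in GFP 2 to 4 (log2 difference 0.75, SE 0.11). For Adm and Ddit4 the sides were apart within each group. In Ddit4 the log2 difference was 0.42 in WT H1.4 and 1.06 in GFP. Vegfa, the vascular growth factor, stood at 527, 537, 455 and 459.5 CPM in WT 1 to 4, 385, 369.9, 184 and 181 in CFT 1 to 4, and 483, 318 and 236 in GFP 2 to 4 (log2 difference 0.67, SE 0.15). The differences in Vegfa were 0.22 in WT H1.4, 1.05 in H1.4 CFT and 0.81 in GFP. P4ha1, a collagen prolyl hydroxylase, differed by 0.57 (SE 0.12) and Ankrd37, a hypoxia-induced ankyrin repeat gene that overlaps Lrp2bp, by 0.95 (SE 0.22).

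The glycolytic enzymes themselves hardly differed in WT H1.4 and differed clearly in H1.4 CFT. Pkm, the pyruvate kinase gene, stood at 842, 828, 757 and 798 CPM in WT 1 to 4, 719, 712, 497 and 466 in CFT 1 to 4, and 757, 638 and 560.0 in GFP 2 to 4, with differences of 0.10 in WT H1.4, 0.57 in H1.4 CFT and 0.34 in GFP. Ldha, the lactate dehydrogenase gene, was not separated: it stood at 968, 1019, 959.8 and 1003 CPM in WT 1 to 4, 784, 754, 497 and 494 in CFT 1 to 4, and 877, 805 and 668 in GFP 2 to 4, and WT 1 and 2 overlapped WT 3 and 4. The glucose transporter gene Slc2a3 (0.31, SE 0.04), the phosphofructokinase gene Pfkp (0.32, SE 0.04), Ndrg1 (0.24, SE 0.08) and Gapdh (0.21, SE 0.06) were separated. Pfkm was the gene with a difference below 0 (-0.05, SE 0.04). Gapdh ranged from 984 CPM in CFT 4 to 1669 CPM in WT 2 and so was no constant reference across these libraries.

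**Figure D4:**
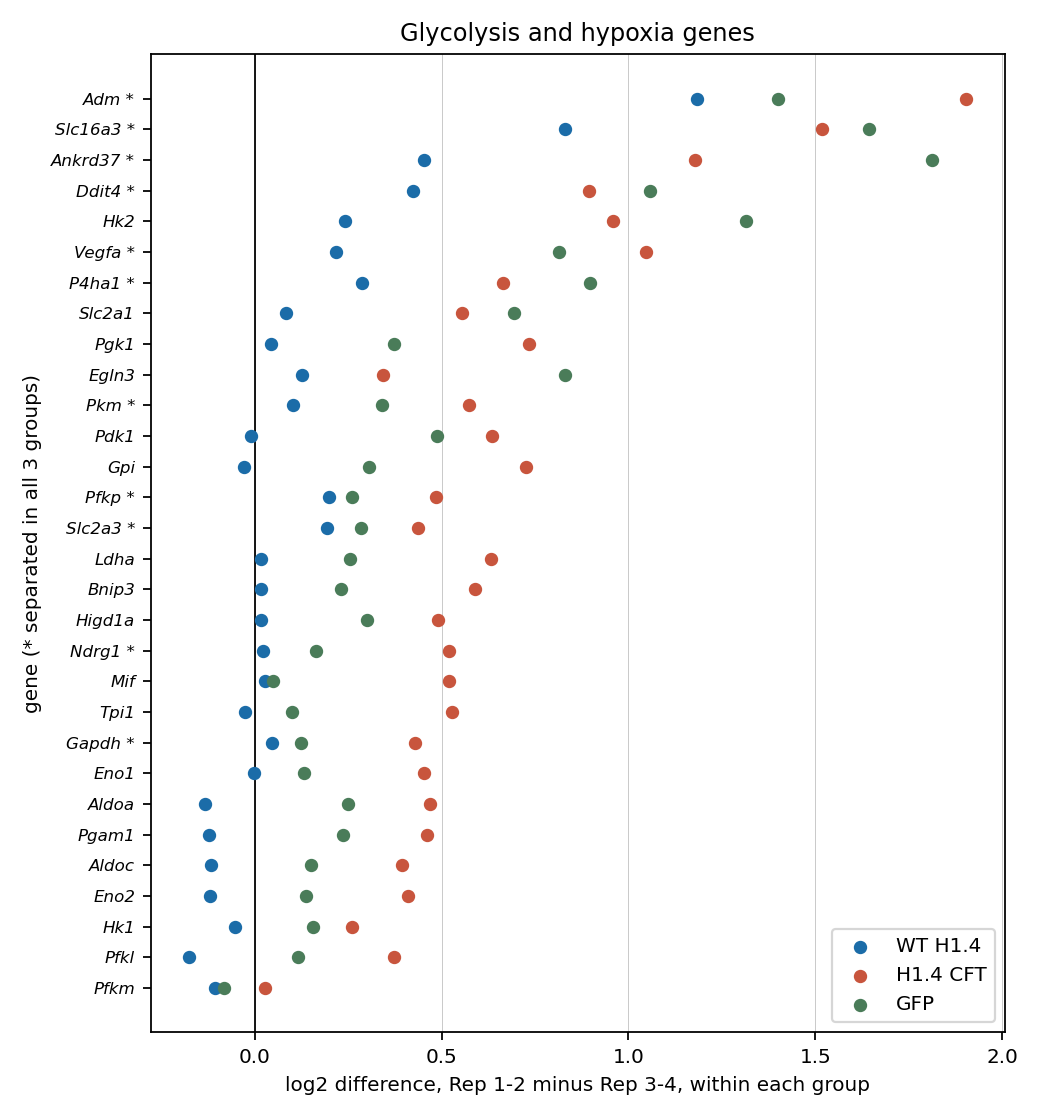
Log2 difference, Rep 1-2 minus Rep 3-4, of each of 30 glycolysis and hypoxia genes (vertical axis) within WT H1.4 (blue), H1.4 CFT (red) and GFP (green); an asterisk marks the 11 genes separated in all 3 groups. The H1.4 CFT points lie to the right of the WT H1.4 points in every row, and many WT H1.4 points lie near 0.

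The promoters of Ankrd37 and Ddit4, 2 of the 11 separated genes, show what the ACGTG form of the hypoxia core looks like in this list. The 250 bases before each start are given 5′ to 3′ in the gene's direction, from RefSeq on GRCr8, with each match to ACGTG on either strand in capitals. The Ankrd37 promoter spans chr16:53001257-53001506 on the plus strand, and that of Ddit4 spans chr20:28437038-28437287 on the minus strand.
Ankrd37: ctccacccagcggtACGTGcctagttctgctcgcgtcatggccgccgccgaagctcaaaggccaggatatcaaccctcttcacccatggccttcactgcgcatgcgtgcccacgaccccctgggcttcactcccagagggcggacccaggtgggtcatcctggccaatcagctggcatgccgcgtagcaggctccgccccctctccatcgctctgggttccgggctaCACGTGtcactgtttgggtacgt
Ddit4: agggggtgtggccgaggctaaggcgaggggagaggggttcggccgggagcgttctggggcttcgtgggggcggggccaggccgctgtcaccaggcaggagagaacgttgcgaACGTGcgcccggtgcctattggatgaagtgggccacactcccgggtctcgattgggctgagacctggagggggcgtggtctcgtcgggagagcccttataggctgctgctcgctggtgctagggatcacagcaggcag
Ankrd37 holds 3 matches, of which 2 overlap as the palindrome CACGTG, and Ddit4 holds 1. Of all 27457 RefSeq promoters, 16.9% hold a match in this window, and of the 27 list genes found there 44.4% do. A match to ACGTG was held by 3 of 9 separated and 9 of 18 other list genes, and Adm, Slc16a3 and Vegfa hold none in this window. Other forms of the core were not searched for, so these counts do not say which promoters lack it. These are matches of letters and not binding sites.

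Sterol synthesis genes were separated about as often as other genes. Of 30 cholesterol and fatty acid synthesis genes tested 3 were separated, all higher, against 9.65% of all genes in either direction and 5.19% higher. The log2 difference was above 0 for 29 of the 30. The list median was 0.21 over all libraries and 0.00 in WT H1.4, 0.50 in H1.4 CFT and 0.13 in GFP. The separated genes were Msmo1, Sc5d and Fdft1, enzymes of the sterol pathway. Msmo1 stood at 236, 241, 211 and 223 CPM in WT 1 to 4, 196, 188, 142 and 139 in CFT 1 to 4, and 259, 235 and 233 in GFP 2 to 4 (log2 difference 0.26, SE 0.04). The highest H1.4 CFT library lay below the lowest WT H1.4 library, and CFT 3 and 4 were lowest of all.

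Genes of the integrated stress response, which amino acid shortage and other stresses switch on through ATF4, were higher where separated. Of 26 tested, 7 were separated and all 7 were higher in Rep 1-2, against 5.19% of all genes in that direction. Of the 26, 16 lay above 0 and 10 below, with a list median of 0.07. Atf5, a transcription factor translated during this response, stood at 93.5, 94.5, 58.7 and 61.8 CPM in WT 1 to 4, 80.8, 75.8, 57.6 and 59.1 in CFT 1 to 4, and 77.2, 60.1 and 52.8 in GFP 2 to 4 (log2 difference 0.51, SE 0.05). Atf5 overlaps Nup62 and Il4i1 in the annotation. Trib3, a pseudokinase induced by ATF4, stood at 2.11, 2.602, 0.275 and 1.152 CPM in WT 1 to 4, 0.794, 0.731, 0.454 and 0.466 in CFT 1 to 4, and 2.03, 0.587 and 0.4804 in GFP 2 to 4 (log2 difference 1.49, SE 0.31). Its highest Rep 3-4 level, in WT 4, was above both Rep 1-2 levels of H1.4 CFT. The lipoprotein receptor gene Vldlr (0.41, SE 0.08), the folate enzyme gene Aldh1l2 (0.30, SE 0.06), the cystine transporter gene Slc7a11 (0.29, SE 0.06), the serine synthesis gene Psat1 (0.21, SE 0.04) and the amino acid transporter gene Slc3a2 (0.15, SE 0.04) were the others. Hmox1, the haem oxygenase of the oxidative stress list, was higher as well (0.49, SE 0.10), while Sqstm1 (-0.14, SE 0.03) and Gpx4 (-0.13, SE 0.04) of the same list were lower. The nutrient-responsive genes Plin2, a coat protein of lipid droplets, and Igfbp2 were higher (0.42 (SE 0.06) and 0.34 (SE 0.06)).

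Heat shock chaperones, p53 targets and respiratory genes were separated at a share near or below the 9.65% of all genes. Heat shock genes had 1 of 20 separated (Hspa4l, -0.11), p53 targets 2 of 18 (Mdm2, -0.14, and Ei24, -0.11) and nuclear genes of oxidative phosphorylation 2 of 36 (Cycs, -0.15, and Ndufs1, -0.11). None of 13 mitochondrially encoded genes was separated. COX1, the most abundant of them, differed by -0.08 (SE 0.03), and COX3 by 0.25 in WT H1.4, -0.07 in H1.4 CFT and -0.08 in GFP. Of 71 cytosolic ribosomal protein genes 3 were separated, all higher, against 5.19% of all genes in that direction (Rpl30, 0.20, Rpl17, 0.15, and Rpsa, 0.08).

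Of 19 circadian clock genes tested, 4 were separated and higher in Rep 1-2, against 5.19% of all genes in that direction, with a median of 0.12. Ciart, a repressor of the clock's activators, stood at 9.903, 9.83, 6.28 and 7.76 CPM in WT 1 to 4, 6.92, 5.398, 2.27 and 2.23 in CFT 1 to 4, and 10.1, 4.36 and 3.18 in GFP 2 to 4 (log2 difference 1.01, SE 0.15). The sides were further apart in H1.4 CFT and GFP than in WT H1.4, where WT 3 and 4 lay near CFT 1. Bhlhe40 and Bhlhe41, repressors of the clock that hypoxia also induces, differed by 0.52 (SE 0.08) and 0.33 (SE 0.09), and Per3 by 0.31 (SE 0.09). The other 15 clock genes were not separated.

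Genes of dividing cells were lower in Rep 1-2 where separated. Of 30 cell cycle and replication genes tested 6 were separated, all lower, against 4.46% of all genes in that direction. The log2 difference lay below 0 for 28 of the 30, with a median of -0.19 (-0.05 in WT H1.4, -0.32 in H1.4 CFT and -0.19 in GFP). Top2a, the topoisomerase of dividing cells, stood at 71.8, 76.7, 78.4 and 80.3 CPM in WT 1 to 4, 74.3, 77.4, 101 and 92.6 in CFT 1 to 4, and 68.3, 81.7 and 84.6 in GFP 2 to 4 (log2 difference -0.24, SE 0.04). CFT 3 and 4 were highest. The mitotic genes Cdc20, Aurka and Plk1 differed by -0.32, -0.32 and -0.25, and the replication genes Rrm2 and Mcm6 by -0.29 and -0.19. Among 10 core and linker histone genes 3 variant H2A genes were separated and lower, H2ax (-0.23, SE 0.05), H2az1 (-0.19, SE 0.04) and H2az2 (-0.19, SE 0.05), and no linker histone gene was.

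Astrocyte markers were divided. Of 19 tested, 7 were separated and lower, against 4.46% of all genes, while 10 of the 19 lay above 0 and the median of the list was 0.00. Aqp4, the water channel of astrocyte endfeet, stood at 138, 142, 156 and 153 CPM in WT 1 to 4, 187, 188, 215 and 226 in CFT 1 to 4, and 181, 199 and 205 in GFP 2 to 4 (log2 difference -0.18, SE 0.03). The sides were apart within each group, but all H1.4 CFT libraries lay above all WT H1.4 libraries. The calcium-binding protein gene S100b (-0.23, SE 0.04), the lipoprotein gene Apoe (-0.18, SE 0.03), Ndrg2 (-0.14, SE 0.04), Mlc1 (-0.12, SE 0.04), the transcription factor gene Sox9 (-0.11, SE 0.04) and the glutamate transporter gene Slc1a3 (-0.08, SE 0.03) were the others. The summed level of the list was 4208 to 5394 CPM in Rep 1-2 and 4389 to 5677 CPM in Rep 3-4, which overlap. Of 12 oligodendrocyte lineage genes tested 4 were separated and lower and 1 was higher, against 4.46% and 5.19% of all genes. The median of this list was -0.24. Olig1, a transcription factor of this lineage, stood at 191, 181, 239.9 and 202 CPM in WT 1 to 4, 184, 189, 218 and 196 in CFT 1 to 4, and 192, 247 and 267 in GFP 2 to 4 (log2 difference -0.25, SE 0.05). The myelin enzyme gene Cnp (-0.27, SE 0.05) and Bcas1 (-0.30, SE 0.06) were lower, as was Gpr17 of committed precursors (-0.87, SE 0.19), which overlaps Lims2. This list summed to 503 to 529.8 CPM in Rep 1-2 and 536 to 627 CPM in Rep 3-4.

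Markers of other cells were scarce, and their summed levels given here overlapped between the sides. Microglial markers summed to 52.98 to 65.1 CPM in Rep 1-2 and 38.3 to 54.6 CPM in Rep 3-4. The defining genes Cx3cr1, Trem2 and C1qa had 7, 4 and 13 counts over all 11 libraries. Endothelial and mural markers had 1 of 12 separated (Acta2), against 9.65% of all genes. They summed to 59.8 to 70.5 CPM in Rep 1-2 and 59.4 to 74.3 CPM in Rep 3-4, with 55 counts of Cldn5 in all. Fibroblast markers (1 lower, Mgp, and 1 higher, Col6a3 with 0.36, SE 0.08, of 13) summed to 248 to 278 CPM in Rep 1-2 and 240.5 to 287 CPM in Rep 3-4. Ependymal and choroid plexus genes (0 of 11; Foxj1 -0.25, SE 0.09) and blood cell genes (0 of 2; Ahsp -0.08, SE 0.12) had none separated, and Hbb-b1 had 0 counts. The part of any cell type in the other differences was not tested. Among matrix and adhesion genes 4 of 29 were higher and 5 lower, against 5.19% and 4.46% of all genes. The matricellular gene Ccn1 differed by -1.10 (SE 0.23), the collagen gene Col12a1 by -0.32 (SE 0.08), the laminin gene Lama1 by 0.27 (SE 0.14) and Sparcl1, a synapse-promoting astrocyte protein, by 0.29 (SE 0.04).

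Regulators of neuronal identity differed in both directions. Mef2c, an activity-dependent transcription factor of excitatory neurons, stood at 67.9, 64.2, 38.3 and 39.4 CPM in WT 1 to 4, 53.1, 56.01, 33.4 and 35.3 in CFT 1 to 4, and 75.5, 47.9 and 46.7 in GFP 2 to 4 (log2 difference 0.71, SE 0.04). Every Rep 1-2 library lay above every Rep 3-4 library. Emx1, a homeobox gene of the cortical and hippocampal progenitor field, was lower (-0.25, SE 0.05), and Lhx2 was slightly lower (-0.07, SE 0.03). With 2 of 16 excitatory identity genes higher and 2 lower, against 5.19% and 4.46% of all genes, the list's median was 0.00. Of 17 inhibitory identity genes only Sp9, a factor of migrating interneurons, was separated (-0.29, SE 0.16), with a median of -0.13. Sema3c, a secreted guidance cue, stood at 79.01, 77.5, 105 and 98.4 CPM in WT 1 to 4, 67.9, 63.4, 105 and 106 in CFT 1 to 4, and 65.6, 77.7 and 89.7 in GFP 2 to 4 (log2 difference -0.49, SE 0.05), the largest in size of the 7 separated axon guidance genes. Of 34 axon guidance genes tested 2 were higher and 5 lower, against 5.19% and 4.46% of all genes. Defining neuronal genes were abundant on both sides, with Map2 at 823 to 1451 CPM and Dcx at 949 to 1497 CPM over the 11 libraries.

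Few synaptic and channel genes were separated, a share close to or below the 9.65% of all genes except among GABA and glycine receptor genes. None of 16 mature neuron genes was separated, and Map2 differed by -0.06 in WT H1.4, 0.24 in H1.4 CFT and 0.08 in GFP. Among GABA and glycine receptor genes 4 of 17 were separated, all higher, against 5.19% of all genes in that direction. The receptor subunit genes Gabrb2 (0.49, SE 0.12), Gabrb1 (0.23, SE 0.04) and Glra2 (0.12, SE 0.04) were among them. Voltage-gated channel genes had 3 of 31 separated (among them Scn3a 0.20 and Cacna1d 0.19), presynaptic genes 2 of 27 (Sv2b 0.38 and Vamp2 0.12) and excitatory postsynaptic genes 1 of 29. That gene was Nrgn, the calmodulin-binding protein neurogranin, at 63.7, 66.8, 47.9 and 59.9 CPM in WT 1 to 4, 25.5, 19.7, 7.32 and 8.75 in CFT 1 to 4, and 57.6, 41.8 and 35.4 in GFP 2 to 4, with differences of 0.28 in WT H1.4, 1.48 in H1.4 CFT and 0.59 in GFP. Of 20 immature neuron genes 3 were higher (Gap43 0.19, Elavl4 0.18 and Dcx 0.09) and Igfbpl1 was lower (-0.34, SE 0.05). The neuropeptide genes Nts and Scg2 and the activin gene Inhba were higher (0.46, 0.18 and 0.46) and the enkephalin gene Penk was lower (-0.50), 4 of 21. Immediate early genes had 1 of 30 higher (Fosl2 0.25) and 3 lower (Ier5 -0.32, Ier2 -0.24 and Btg2 -0.15). Developmental signalling genes had Wnt7a higher (0.19) and Notch1 and Id2 lower (-0.19 and -0.14), 3 of 33. The most abundant separated genes differed little: the elongation factor gene Eef1a1 by -0.04, the growth cone gene Dpysl2 by 0.19 and the translation factor gene Eif4g2 by -0.07.

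The split also bore on the comparisons between constructs, which were tested with edgeR's quasi-likelihood test and Benjamini-Hochberg adjustment over all 17294 genes. With the group alone in the model, 6218 genes (36.0%) passed an adjusted p of 0.05 when H1.4 CFT was compared with WT H1.4, with 2893 higher and 3325 lower in H1.4 CFT. Adding the split as a term gave 7323 (42.3%), and all 6218 remained. When H1.4 CFT was compared with GFP the count went from 5098 (29.5%) to 6280 (36.3%), with 5097 in both. For WT H1.4 and GFP it went from 163 (0.943%) to 404 (2.34%), with 162 in both, and it was 248 with the replicate number as a block. It was 83 to 105 without any 1 of the WT H1.4 libraries, 44 without GFP 3, 45 without GFP 4 and 306 without GFP 2. No gene passing with the group alone changed sign in any of the 3 comparisons. The term was chosen from the similarity of these same libraries, so the added calls are not independent evidence. With the group alone, 35.5% of separated and 36.0% of other genes passed when the H1.4 constructs were compared. The shares were 25.9% and 29.9% when GFP was set against H1.4 CFT, and 0.599% and 0.979% when it was set against WT H1.4. WT H1.4 and H1.4 CFT each have 2 libraries on each side, whereas GFP has 1 and 2.

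Genes that differed strongly across the split could have a wide error in the construct comparison with the group alone. For Prss12 the edgeR log2 fold change, H1.4 CFT over WT H1.4, was -1.09 (SE 0.65, adjusted p = 0.232). For Ciart edgeR gave -1.01 (SE 0.46, adjusted p = 0.121), and for Mef2c -0.24 (SE 0.29, adjusted p = 0.563). Of the sex-linked genes, Kdm5d had 0.19 (SE 0.30, adjusted p = 0.663) and Eif2s3y -0.02 (SE 0.24, adjusted p = 0.957) in edgeR. None of these 5 genes passed. With the split as a term their errors are smaller by construction, since the term holds the difference that chose them, so those p-values are not given. Dcx, which differed little across the split, passed in edgeR with the group alone at -0.56 (SE 0.05, adjusted p = 6.82e-08).

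Fold changes of H1.4 CFT over WT H1.4 were larger in Rep 3-4 than in Rep 1-2. Of the 6218 genes called with the group alone, 4790 (77.0%) had the larger fold change in Rep 3-4, 12 had opposite signs, and the median size of the log2 change was 0.28 in Rep 1-2 and 0.43 in Rep 3-4. Over all genes tested, 705 differed at least 2-fold in Rep 1-2 and 1319 in Rep 3-4. Each side has 2 libraries a group, and whether the fold changes differ between the sides was not tested, because the spread such a test needs was used to choose the split.

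Among lists with at least 10 genes tested, the 2 metabolic lists had the widest gap between the sides. For glycolysis and hypoxia genes the median log2 fold change of H1.4 CFT over WT H1.4 was -0.29 in Rep 1-2 and -0.78 in Rep 3-4, and for cholesterol and fatty acid synthesis -0.23 in Rep 1-2 and -0.77 in Rep 3-4. Over all genes it was 0.01 and 0.02. For Vegfa the log2 fold change was -0.49 (SE 0.12) in Rep 1-2 and -1.32 (SE 0.13) in Rep 3-4, and for Ldha -0.37 (SE 0.09) in Rep 1-2 and -0.99 (SE 0.09) in Rep 3-4. For Nrgn it was -1.53 (SE 0.12) in Rep 1-2 and -2.74 (SE 0.15) in Rep 3-4. Lists of neuronal function had the same order, with -0.20 in Rep 1-2 and -0.48 in Rep 3-4 for voltage-gated channels, -0.24 in Rep 1-2 and -0.44 in Rep 3-4 for presynaptic genes and -0.17 in Rep 1-2 and -0.43 in Rep 3-4 for mature neuron genes. Cell cycle genes were at 0.05 in Rep 1-2 and 0.34 in Rep 3-4 and inhibitory identity genes at 0.18 in Rep 1-2 and 0.46 in Rep 3-4. Astrocyte genes were about level, at 0.29 in Rep 1-2 and 0.31 in Rep 3-4, and interferon genes were less changed in Rep 3-4, at 0.81 in Rep 1-2 and 0.51 in Rep 3-4. Some lists near 0 changed sign, such as immediate early genes at 0.07 in Rep 1-2 and -0.11 in Rep 3-4.

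**Figure D5:**
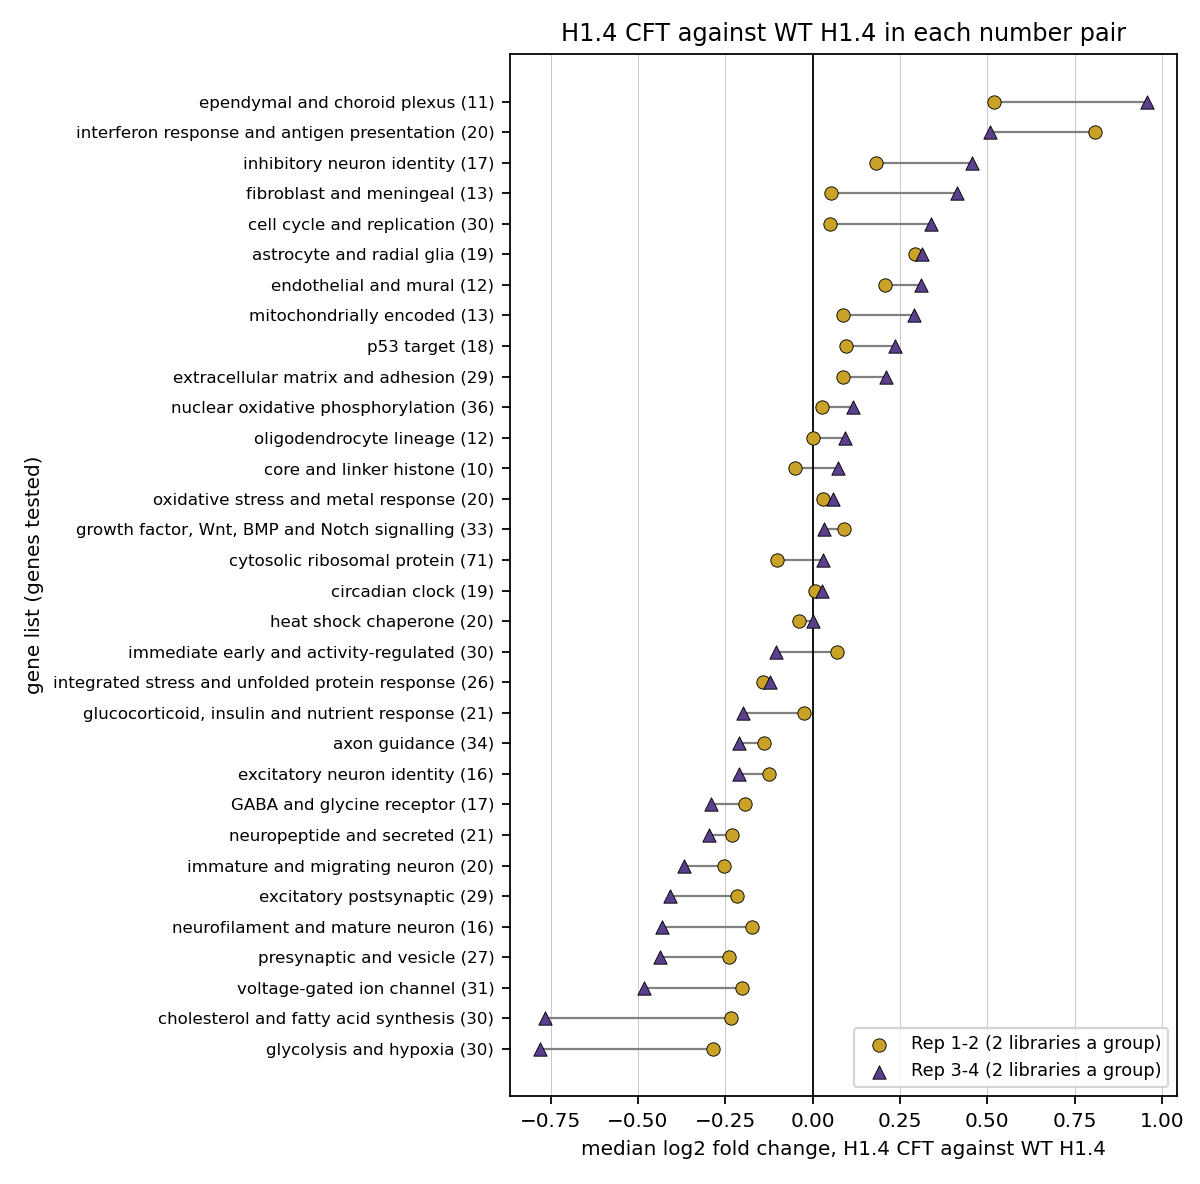
Median log2 fold change of H1.4 CFT over WT H1.4 (horizontal axis) in Rep 1-2 (yellow circles) and Rep 3-4 (purple triangles) for every list with at least 10 genes tested (vertical axis, number of genes in brackets), with 2 libraries a group on each side. The glycolysis and hypoxia and the cholesterol lists lie furthest to the left, at -0.78 and -0.77 in Rep 3-4 against -0.29 and -0.23 in Rep 1-2.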

How the data were processed

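Polyadenylated RNA of 11 cultures of rat primary hippocampal neurons was sequenced after lysis in Trizol and column purification with a DNase step, per the labels' protocols. Per the submitters' processing notes, reads were aligned with STAR 2.7.2b to mRatBN7.2 and counted with HTSeq 0.10.0. Each deposited file gives raw, unscaled counts for 42172 gene symbols and 5 summary rows. The annotation release and strand setting are not given in the sources used here. The summary rows stayed out of all sums; reads in genes were 45.9% to 46.9% of each library.

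The analysis used edgeR 4.0.16 in R 4.3.3 (filterByExpr by group, minimum count 10 and total 15, TMM scaling, robust quasi-likelihood fit), which kept 17294 genes and was tested on simulated data. Gene counts of 12070941 to 18846492 per library limit the precision of low genes. The split difference and its SE come from a model with group and split. The construct comparisons used the group alone, with p-values adjusted by Benjamini-Hochberg over all genes. The series text calls the libraries biological replicates of cultures, and no label says whether these came from separate animals, so the p-values measure the spread between these cultures. Alternatives were the split as a term, the replicate number as a block, each side alone, other scaling and filters, DESeq2 1.42.0 and the omission of each library.

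The members, the 37 gene lists and the tests were chosen with earlier results of these data known. Named genes were the 12 largest separated differences in each direction (mean of at least 2 CPM, no locus identifier), up to 4 separated members of each list or else its 2 most abundant, the 3 genes most opposed between the H1.4 constructs, and the 5 most abundant separated genes. Other list members are named where a list is described in full, and Nfe2l3, Casp4 and Agbl1 only at the fold limit. RT1-M6-2 is named only as an RT1 gene outside the list. Members not named are covered by counts and medians. Gene overlaps and neighbours came from the RefSeq annotation of GRCr8, which matched 29477 symbols and is not the build of the files. Of 126 named genes it held, 48 overlap another gene.

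Whether equal replicate numbers pair the libraries was checked with the correlation of deviations from group means. Equal numbers gave 0.0959 to 0.254 between the H1.4 constructs, 0.179 to 0.374 between H1.4 CFT and GFP and 0.116 to 0.256 between WT H1.4 and GFP. The pairs with GFP all passed 0.1, but 1 of the 4 between the H1.4 constructs did not. Passing 0.1 cannot show a pairing by number, because libraries with a different number on the same side gave 0.130 to 0.375. Any pairing thus rests on shared numbers only.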

Additional observations from a re-analysis of the deposited data

Results flagged for a closer look

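Some genes stood apart in opposite directions in WT H1.4 and H1.4 CFT, with every Rep 1-2 library of a group on one side of its Rep 3-4 libraries. Misp, which helps to position the spindle, had a log2 difference across the split of 1.694 in WT H1.4 and -0.268 in H1.4 CFT. In WT 1 to 4 it stood at 1.95, 1.37, 0.771 and 0.242 CPM, and in CFT 1 to 4 at 7.2, 7.65, 8.11 and 9.74 CPM. Wnt3, a secreted Wnt ligand, had -0.429 in WT H1.4 and 1.345 in H1.4 CFT, at 1.79, 2.53, 2.75 and 2.97 CPM in WT 1 to 4 and 2.83, 3.94, 1.47 and 1.19 CPM in CFT 1 to 4. Mgarp, a mitochondrial protein of hypoxic cells, had -0.434 and 1.252, at 2.16, 2.38, 2.97 and 3.15 CPM and 1.76, 2.53, 1.248 and 0.57 CPM. The differences between the groups were not tested, and these 3 genes were picked for them.

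A single library stood far from the other 3 of its group in a few values. Hydin, a gene of motile cilia, stood at 4.221 CPM in WT 1 and at 5.956 CPM in CFT 4, each below the rest of its group. In CFT 3 the p53 target gene Ei24 was high at 103.6 CPM and Slc7a11 low at 54.23 CPM, while Slc7a11 kept its order across the split in all 3 groups. CFT 1 had the lowest share of reads in genes of its group, at 45.9146%, and the highest share for its 10 most abundant genes, at 4.02307%, and CFT 4 had the most detected genes, at 23807. In all, 7 of 288 group values checked (2.43%) met this rule, with GFP not checked. Chance flags about 1 in 20 where all libraries of a group vary alike. Most genes checked were picked for a gap between the sides, so that rate cannot be set beside this share.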

How the results depend on the processing

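The separated genes at least 1.5-fold apart (174 higher and 123 lower) depended mostly on the fold and the filter. There were 898 and 771 with no minimum fold, 393 and 230 at a lower minimum between these, 58 and 52 at 2-fold, and 59 and 27 with a filter of 5 CPM in 3 libraries. Without single libraries they were 188 to 234 and 131 to 205, since fewer libraries then have to agree; the highest of each came without GFP 2, which leaves GFP with no Rep 1-2 library. No named gene with a difference larger than its spread reversed direction. Changes of sign in list medians and in smaller gene differences were not counted as reversals. Beyond their spread moved 52 of 2044 gene values and 3 of 108 list medians. Between WT H1.4 and GFP, 163 genes passed, but 404 with the split as a term, 1596 in Rep 3-4 alone, 462 with no low-count filter and 248 with DESeq2. Without single libraries this count was 44 (GFP 3) to 306 (GFP 2). The comparison of H1.4 CFT with GFP gave 5098, but 3331 in Rep 1-2 alone, where GFP has 1 library assumed to vary like the others, and 3963 to 5133 without single libraries. The H1.4 constructs gave 6218, and 5031 to 6444 without single libraries. The causes of these moves were not tested. Genes near 2 CPM, among them RT1-CE16 and RT1-T24-1, rest on few counts in each library.

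With the replicate block, that is the replicate number as a paired term, 6809 genes passed between the H1.4 constructs, 5597 between H1.4 CFT and GFP and 248 between WT H1.4 and GFP, and 179 and 125 separated genes were at least 1.5-fold higher and lower. Libraries of different groups share only a number, and they did not all correlate best with their own number.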
